A study of Mus musculus with 2 samples.

Results

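In the deposited reads of Scl chromatin from HPC-7 cells, chromosomes 1, 8 and 17 carried far more called regions than the rest of the genome. They held 1494 of the 3455 regions called in sample 1, with 541 on chromosome 1, 550 on chromosome 8 and 403 on chromosome 17. The 16 other autosomes held 1882 and chromosomes X and Y held 79. Reads with the same 5′ end and strand were counted once and moved 67 bp inwards to the middle of their fragment. A window of 200 bp was kept where it held at least 8 such reads and at least 5 times the larger of the genome average (over 1.9e9 bp) and the surrounding 10 kb. Windows within 200 bp were merged, and neither strand could hold under 20% of a region's reads. The 3 chromosomes were chosen by these sample 1 counts, so their excess in sample 1 is given as a description, with no test. Measures that the choice did not use were the reads of sample 2 at the same places and the sequence under the regions. Numbers called again at equal read density in sample 1 come from the same reads as the choice, and those in sample 2 do not.

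HPC-7 is a mouse line of early blood progenitors derived from embryonic stem cells and grown in medium conditioned with stem cell factor. The labels name no treatment or genetic change, and cells fixed in 0.4% formaldehyde gave chromatin sheared to between 200 and 500 bp, which was immunoprecipitated once against Scl. The DNA was divided into 3 portions: those of lanes 7 and 8 make up sample 1, and sample 2 was read at another site. Only 1 group exists, no input, genomic DNA or control antibody library was analysed here, and the samples repeat the sequencing and not the immunoprecipitation. All intervals below cover counting error only. Those on numbers of sample 1 regions do not allow for the choice of the 3 chromosomes by the same counts.

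Scl, also named Tal1, is a basic helix-loop-helix protein that is required for blood formation. It binds E-boxes, short palindromic DNA motifs, as a dimer with an E-protein, and in blood cells it works in complexes with GATA factors, Lmo2 and Ldb1. Such complexes are known to occupy an E-box and a GATA motif placed a short distance apart, and also GATA motifs without a nearby E-box. In chromatin immunoprecipitation, reads outside bound sites form a background that follows the amount of DNA present, its base composition and how well its reads can be placed. A call rule with a fixed minimum of reads is passed more easily where that background is denser.

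Sample 1 held 5938053 reads, of which 5632119 (94.8%) had a distinct end, an average of 0.593 per 200 bp. Sample 2 held 4295961 reads, of which 4150610 (96.6%) were distinct, an average of 0.437 per 200 bp. At these depths a window of 8 reads lies far above the average but holds few molecules.

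The sequences under the strongest regions with both kinds of motif are shown first, since they are the sites at which the layout known for Scl complexes can be read directly. They were assembled from the sample 2 reads and are given in build mm8, plus strand, as far as reads covered the 201 bases around the sample 1 summit. Capitals mark GATA motifs (AGATAA or AGATAG, likewise TGATAA or TGATAG), the E-box CAGCTG and, where a composite was found, its E-box and GATA motif, on either strand. A composite is CANNTG followed by 7 to 9 bases and GATA, read on either strand, so its letters can overlap those of the other motifs.
Chromosome 8, 92 reads, chr8:123256044-123256244: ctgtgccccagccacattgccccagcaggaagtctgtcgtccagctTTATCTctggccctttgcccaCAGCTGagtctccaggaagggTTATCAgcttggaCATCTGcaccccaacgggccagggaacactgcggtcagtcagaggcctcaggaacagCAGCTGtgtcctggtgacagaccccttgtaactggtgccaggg
Cbfa2t3 upstream, 69 reads, chr8:125605888-125606088: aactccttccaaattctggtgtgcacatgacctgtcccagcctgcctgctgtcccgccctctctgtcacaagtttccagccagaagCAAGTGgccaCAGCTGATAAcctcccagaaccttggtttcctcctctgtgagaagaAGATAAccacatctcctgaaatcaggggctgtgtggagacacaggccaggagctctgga
Cbfa2t3 promoter, 41 reads, chr8:125585246-125585429: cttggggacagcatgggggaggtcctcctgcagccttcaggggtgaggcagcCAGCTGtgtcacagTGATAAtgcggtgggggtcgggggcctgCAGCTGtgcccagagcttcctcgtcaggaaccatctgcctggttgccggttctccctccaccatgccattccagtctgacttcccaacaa
Chromosome 17, 36 reads, chr17:84685018-84685177: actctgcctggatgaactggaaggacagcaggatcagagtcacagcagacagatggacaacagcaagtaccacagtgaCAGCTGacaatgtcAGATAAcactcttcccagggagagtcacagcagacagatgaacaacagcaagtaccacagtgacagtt

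In the upstream Cbfa2t3 sequence the run CAGCTGATAA holds a CAGCTG and a GATA motif that share letters, and the composite there is formed with the CAAGTG before it. The composite spacing was 8 bases in the region of 92 reads and 9 bases in the other 3. Other strong regions lacked 1 or both kinds of capitals. The next sequences show a chromosome 8 neighbour with 4 GATA motifs and no CAGCTG, the chromosome 17 region with the most reads, the chromosome 1 region with 2 CAGCTG motifs and no GATA motif, and the region just upstream of Sde2 with neither.
Chromosome 8, 108 reads, chr8:123257835-123258035: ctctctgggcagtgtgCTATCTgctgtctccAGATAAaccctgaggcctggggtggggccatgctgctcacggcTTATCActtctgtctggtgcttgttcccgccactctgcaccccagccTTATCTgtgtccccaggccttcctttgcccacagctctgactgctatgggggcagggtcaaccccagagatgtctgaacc
Chromosome 17, 72 reads, chr17:70393824-70394024: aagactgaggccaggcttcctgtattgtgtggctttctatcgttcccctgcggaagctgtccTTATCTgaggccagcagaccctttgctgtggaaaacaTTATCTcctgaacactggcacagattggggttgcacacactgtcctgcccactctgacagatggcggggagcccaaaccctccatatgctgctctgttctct
Chromosome 1, 49 reads, chr1:39341022-39341203: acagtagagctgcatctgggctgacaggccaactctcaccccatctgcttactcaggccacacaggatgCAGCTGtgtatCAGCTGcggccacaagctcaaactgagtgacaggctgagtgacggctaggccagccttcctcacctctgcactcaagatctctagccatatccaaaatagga
Sde2 upstream, 55 reads, chr1:182687529-182687729: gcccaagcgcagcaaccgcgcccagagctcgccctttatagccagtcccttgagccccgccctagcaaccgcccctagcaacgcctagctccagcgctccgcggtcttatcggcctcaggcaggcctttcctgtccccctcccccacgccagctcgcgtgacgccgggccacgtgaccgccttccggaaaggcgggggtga

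The region with the most reads of the 3 chromosomes lay on chromosome 8 at the start of Lyl1, which encodes a basic helix-loop-helix protein closely related to Scl. In mm9 it spanned chr8:87225351-87225800, with its summit 218 bp past the gene start. Its best 200 bp held 123 reads, 23.1-fold over the background. Within 100 bp of the summit, the span used for single portions, lane 7 had 53 reads, lane 8 had 87 and sample 2 had 59, of which 27 did not share their end with a sample 1 read. All 3 portions thus showed it. Its plus and minus ends lay 127.5 bp apart in each sample, the layout of fragments on both sides of a site, and its 201 bases held a GATA motif but no composite. A second Lyl1 region of 28 reads lay upstream, at -1381 bp from the start.

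Cbfa2t3 encodes Eto2, a corepressor found in Scl complexes. Around it 5 regions lay within 50 kb of the start, and 4 of them were also called in sample 2. The strongest, at -20789 bp (chr8:125243551-125244000 in mm9), had 69 reads, with 23 in lane 7, 49 in lane 8 and 46 in sample 2. A region at -1831 bp had 48 reads. At the promoter itself (chr8:125222951-125223350, -130 bp) the best window had 41 reads, with 12 in lane 7, 31 in lane 8 and 22 in sample 2. Both sequences printed for Cbfa2t3 hold the composite.

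A pair of strong regions lay close together on chromosome 8. That at chr8:122895601-122896100 had 108 reads, with 37 in lane 7, 80 in lane 8 and 65 in sample 2. Its neighbour at chr8:122893851-122894300 had 92 reads, with 36, 64 and 47. Among the genes that could be placed, the nearest start was that of Gm39264, at -26704 and -24913 bp. Around them lay 24.4 and 29 reads per kb, and each of these counts includes reads of the other region of the pair. The same holds for the 10 kb behind their folds of 15.3 and 12.9, which were below that of the Lyl1 region. Surroundings without the pair were not measured. The remaining strong chromosome 8 region of the 5, at chr8:74792151-74792650, had 64 reads and 25.2-fold enrichment, with 46 reads in sample 2. Around it lay 4.38 reads per kb. Reads per kb leave out the region itself, whereas these folds are over the surrounding 10 kb with the region's own reads included.

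On chromosome 17 the strongest region, chr17:70838101-70838600, had 72 reads, 24 in lane 7, 48 in lane 8 and 42 in sample 2, and 30.3-fold enrichment. It lay 118095 bp from the nearest placed start. The regions at chr17:29996751-29997250, chr17:84515751-84516200, chr17:85175901-85176350 and chr17:36368101-36368500 had 56, 37, 36 and 33 reads, and 47, 23, 25 and 17 in sample 2. The third of these, whose composite is printed above, lay 13994 bp past the start of Lrpprc, which encodes a mitochondrial RNA-binding protein. On chromosome 1 the strongest region with the ends apart, chr1:182780851-182781300, lay at -197 bp from the start of Sde2, a gene for a protein of DNA replication and splicing. It had 55 reads, 16 in lane 7, 42 in lane 8 and 37 in sample 2, and 28.1-fold enrichment. The other 4, at chr1:39453201-39453600, chr1:183302451-183302850, chr1:89858051-89858500 and chr1:153862701-153863150, had 49, 42, 39 and 35 reads, and 27, 29, 31 and 27 in sample 2. Each of these 15 regions was called in sample 2. The counts and calls include sample 2 reads that share their end with a sample 1 read. Without such reads the counts ran from 10 at chr17:36368101-36368500 to 39 at chr17:29996751-29997250, and the calls were not repeated.

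Some regions with many reads had another layout. At chr1:197067601-197068150 the best window held 59 reads, but plus and minus ends lay only 34.5 bp apart in sample 1 and 25 bp in sample 2. Likewise, the sample 1 distance was 32 bp at chr17:13498651-13499300 (56 reads), 35 bp at chr8:19923951-19924250 (39 reads) and 28 bp at chr17:13744601-13745250 (36 reads). It was 11 bp at chr1:87487851-87488050 (34 reads) and 29 bp at chr8:24205901-24206350 (30 reads). The regions on chromosome 17 of 56 reads and on chromosome 8 of 39 reads could not be placed in sample 2. In sample 2 the distance was 33 bp at the placed chromosome 17 region and 16.5 bp at the chromosome 8 region of 30 reads. At chr1:87487851-87488050 it was 112.5 bp, so sample 2 did not repeat the short distance there. All 4 placed ones were called in sample 2, and none of them held a GATA motif. Ends lay at least 67 bp apart in 1182 of the 1494 regions (79.1%), against 79.9% on the other autosomes and 79.6% over all autosomes.

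These strong regions were a small part of the 1494. The median region had 8 reads in its best window, 7.41-fold enrichment and a width of 250 bp, against 9 reads, 9.78-fold and 250 bp on the other autosomes. Regions of 8 to 11 reads made up 88.1% of those on chromosomes 1, 8 and 17 and 78.9% of those elsewhere. Exactly 8 reads, the lowest number allowed, were found in 767 and 932 regions. Just outside the rule, 1659 and 2664 places met all other criteria with 7 reads. Only 113 regions on the 3 chromosomes had 16 or more reads, 29 on chromosome 1, 56 on chromosome 8 and 28 on chromosome 17, against 241 elsewhere.

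Per Mb with reads, sample 1 had 2.79 regions on chromosome 1, 4.30 on chromosome 8 and 4.33 on chromosome 17. Over the 3 together it had 3.60 (415 Mb), and 0.947 on the other autosomes (1988 Mb), whose single values ran from 0.522 on chromosome 3 to 1.50 on chromosome 2. The ratio was 3.80 (exact binomial 95% interval 3.55 to 4.07, which does not allow for the choice of these chromosomes by the same counts). In sample 2, called by the same rule, the 3 chromosomes held 328 of 970 regions. Its rates were 0.794 and 0.287 per Mb, a ratio of 2.76 (2.41 to 3.17), with 1.93 on chromosome 1, 3.64 on chromosome 8 and 3.29 on chromosome 17. All 3 chromosomes thus stood above the others in the reads that the choice had not used. Sample 2 comes from the same immunoprecipitation, so this repeats the sequencing only.

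In sample 1 the excess differed between regions of few and of many reads. The ratio per Mb in sample 1 was 3.94 for regions of 8 reads, 4.97 for 9 and 4.47 for 10 to 11. It was 2.00 (1.47 to 2.68) for 12 to 15, 1.81 (1.27 to 2.53) for 16 to 23 and 2.76 (2.00 to 3.79) for 24 or more. Each class up to 11 reads in sample 1 thus had a higher ratio than each class above it, with no steady fall inside either range. Sample 2 did not repeat this split. Its ratio was 1.74 (1.17 to 2.55) for 10 to 11 reads and 3.09 (2.05 to 4.60) for 16 to 23, with overlapping intervals. For 12 to 15 reads it was 1.50 and for 24 or more 1.63. The classes of 8 and 9 reads had the highest ratios in sample 2.

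**Figure D1:**
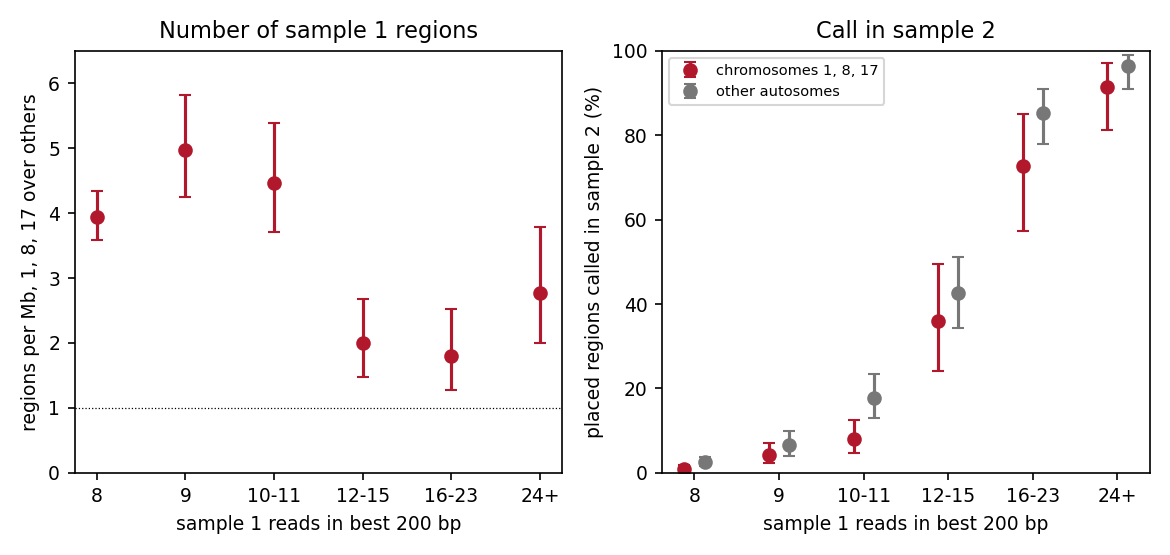
Left, sample 1 regions per Mb on chromosomes 1, 8 and 17 divided by that on the other autosomes, for 6 classes of reads in the best 200 bp, with exact binomial 95% intervals and a dotted line at 1. Right, percentage of placed regions that were also called in sample 2, with exact binomial 95% intervals. The ratio is 3.94 or more in the classes up to 11 reads and 2.76 or less above, and the share called rises from 0.951% and 2.45% at 8 reads to 91.5% and 96.3% at 24 or more.

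The background itself was denser on the 3 chromosomes. Outside the called regions and 1 kb around them, reads per Mb were 1.29 times those of the other autosomes on chromosome 1, 1.52 times on chromosome 8 and 1.62 times on chromosome 17, and 1.43 times over all. In sample 2 the same ratios were 1.29, 1.50, 1.57 and 1.42. Single lanes gave 1.27, 1.54 and 1.62 in lane 7 and 1.30, 1.53 and 1.61 in lane 8. The ratio was therefore much the same in every portion. Other autosomes ran from 0.807 on chromosome 3 to 1.30 on chromosome 11, so chromosome 1 lay within their range by this measure.

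Base composition differs between chromosomes, so bins of 1 Mb were next compared within classes of equal GC content. Then chromosomes 1, 8 and 17 came together, with median ratios of 1.45, 1.48 and 1.48 in sample 1 and 1.42, 1.43 and 1.41 in sample 2. The other 16 autosomes had medians of 0.969 to 1.04 and 0.959 to 1.04. A ratio above 1.2 was found in 86.5% of the bins of the 3 chromosomes and 7.003% of the others in sample 1, and in 85.8% and 8.72% in sample 2. Chromosome X, given for scale, was at 0.506 in sample 2. The cells' DNA copy number was not measured, and no genomic library was analysed here, so its part in these ratios was not tested.

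**Figure D2:**
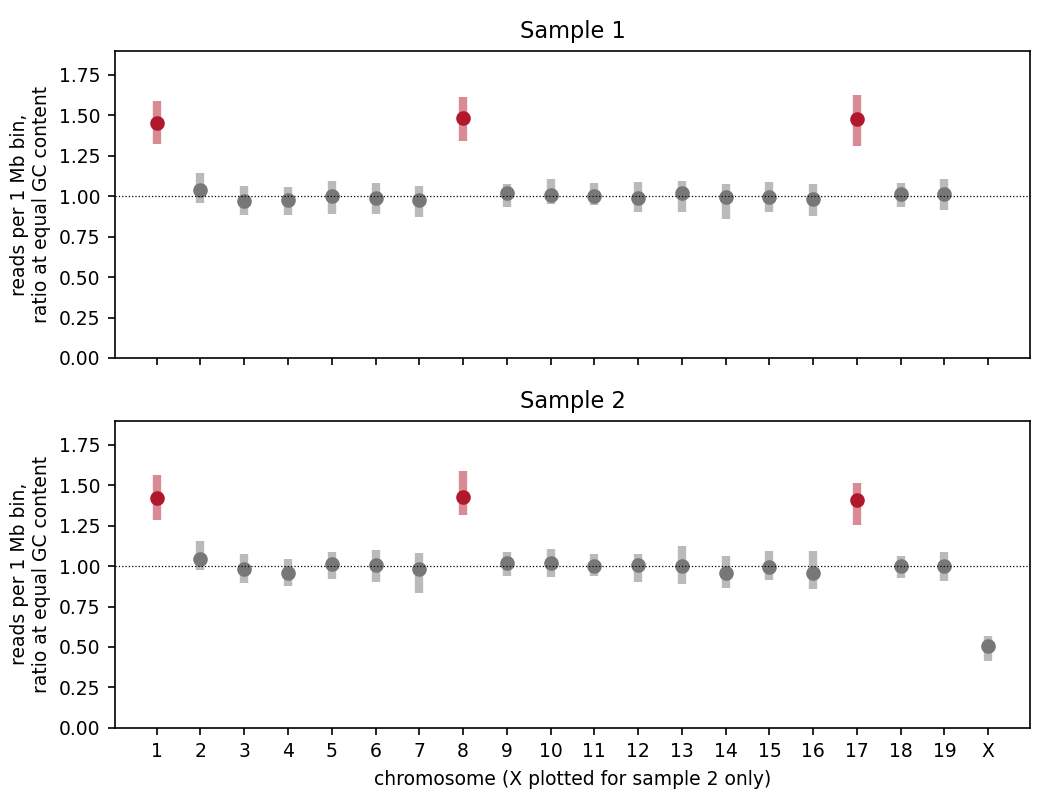
Distinct reads per 1 Mb bin relative to autosomal bins of equal GC content outside chromosomes 1, 8 and 17, for each chromosome of sample 1 (top) and sample 2 (bottom). Points are medians over bins and bars the quartiles, in red for chromosomes 1, 8 and 17. Their medians lie between 1.41 and 1.48 and all other autosomes between 0.959 and 1.04.

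The raised density ran along the whole of each chromosome. When the bins were divided by position into 10 equal parts per chromosome, the lowest part of the 3 chromosomes was at 1.30 in sample 1 and 1.20 in sample 2, both on chromosome 17. The highest was the last part of chromosome 8, at 1.71 and 1.69. Among the other autosomes the highest was the last part of chromosome 2, at 1.51 and 1.41, and the next was 1.17 and 1.16 on another chromosome.

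The end of chromosome 2 offered a comparison with the 3 chromosomes, chosen after these values were seen. From 165 Mb on, its bins had a median ratio of 1.52 in sample 1 and 1.47 in sample 2, against 1.03 in each for the rest of the chromosome. Its 15 Mb held 114 regions in sample 1, 7.6 per Mb, and the other 162 Mb held 152, 0.938 per Mb. In sample 2 the numbers were 21 and 48, a ratio per Mb of 4.73 (exact binomial 95% interval 2.69 to 8.04). The end of chromosome 2 thus also held many regions. Its ratio at equal GC content was like that of the 3 chromosomes, but its background was 5056 reads per Mb against 2113 in the rest of chromosome 2, a wider gap than theirs. When 68.0% of its reads were kept at random, which removes the gap at equal GC content only, 20 draws gave a mean of 24.4 regions in those 15 Mb (15 to 34), or 1.63 per Mb against 0.938.

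**Figure D3:**
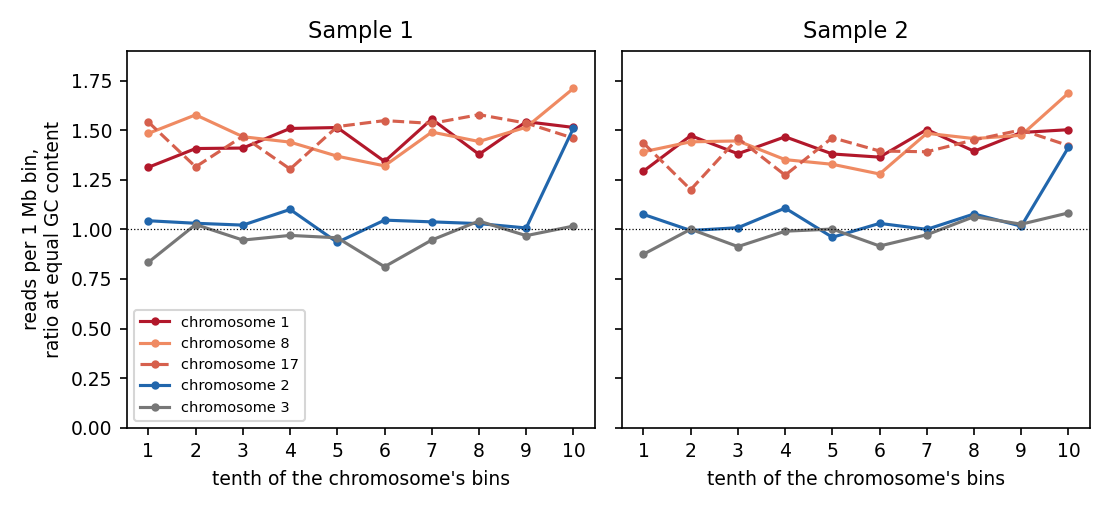
Median ratio of reads per 1 Mb bin at equal GC content along 5 chromosomes, each divided into 10 parts of equal bin number, in sample 1 (left) and sample 2 (right). Chromosomes 1, 8 and 17 stay at or above 1.20 throughout, chromosome 3 stays near 1, and chromosome 2 rises to 1.51 and 1.41 in its last part only.

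Scaling to the reads reduced the excess in steps. Per 1000000 background reads, sample 1 had 1190 regions on the 3 chromosomes and 448 on the other autosomes, a ratio of 2.65 (exact binomial 95% interval 2.48 to 2.84), and sample 2 had 357 and 183, a ratio of 1.95 (1.70 to 2.24). Between bins of equal read number, the 3 chromosomes held 2.00 times the regions that the other autosomes' rate gives in sample 1, and 1.40 times in sample 2. These values rest on bins under 5000 reads in sample 1 (363 of 415 bins and 965 of 1494 regions) and under 3500 in sample 2 (202 of 328 regions), since denser classes had under 20 bins on the other autosomes. In those denser sample 1 classes the regions per bin were 8.36 on the 3 chromosomes and 4.27 elsewhere from 5000 reads, 10.5 and 9 from 5500, 8.83 and 10.3 from 6000, and 14.7 and 15 from 6500, over 1 to 22 bins each. The sample 2 ratio of 1.40 was uneven over the classes. Regions per bin were close from 1000 reads (0.171 and 0.169), 1500 (0.308 and 0.316), 2000 (0.435 and 0.434) and 2500 (0.685 and 0.627). They differed under 500 reads (1 and 0.189), from 500 (0.4 and 0.0741) and from 3000 (1.62 and 0.865). The division by background reads does not undo the fixed minimum of 8 reads, and the comparison between bins of equal read number leaves out the densest bins. The reads themselves were therefore also made equal.

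When reads of the 3 chromosomes were thinned at random to the background of the other autosomes and regions were called again, a mean of 418 regions (390 to 445 over 20 draws) were called, against 1494 before. The ratio per Mb was then 1.06 in sample 1 (0.993 to 1.13 over the draws, 0.955 to 1.18 as exact binomial 95% interval of the mean number). It was 1.05 on chromosome 1, 1.14 on chromosome 8 and 0.979 on chromosome 17. In sample 2 it was 1.13 (1.05 to 1.24 over the draws), with 0.919, 1.42 and 1.17. That value rests on a mean of 134.2 regions against 571 on the other autosomes. Ranges over the draws show the spread of the thinning and leave out counting error, so they do not show whether a ratio is clear of 1. With thinning, most of the excess of called regions was thus no longer there at an equal mean background. Between bins of equal read number the ratio over all classes used had stayed at 2.00 in sample 1 and 1.40 in sample 2, the latter uneven over the classes. Why it was higher there than after thinning was not tested. Raising the minimum on each chromosome by its density ratio in place of thinning gave 0.476 (0.407 to 0.553), below 1. Thinning with a minimum of 12 or 16 reads gave 1.24 (1.16 to 1.33 over the draws) and 1.26 (1.13 to 1.41). Without chromosome 2 among the other autosomes the sample 1 value was 1.08.

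**Figure D4:**
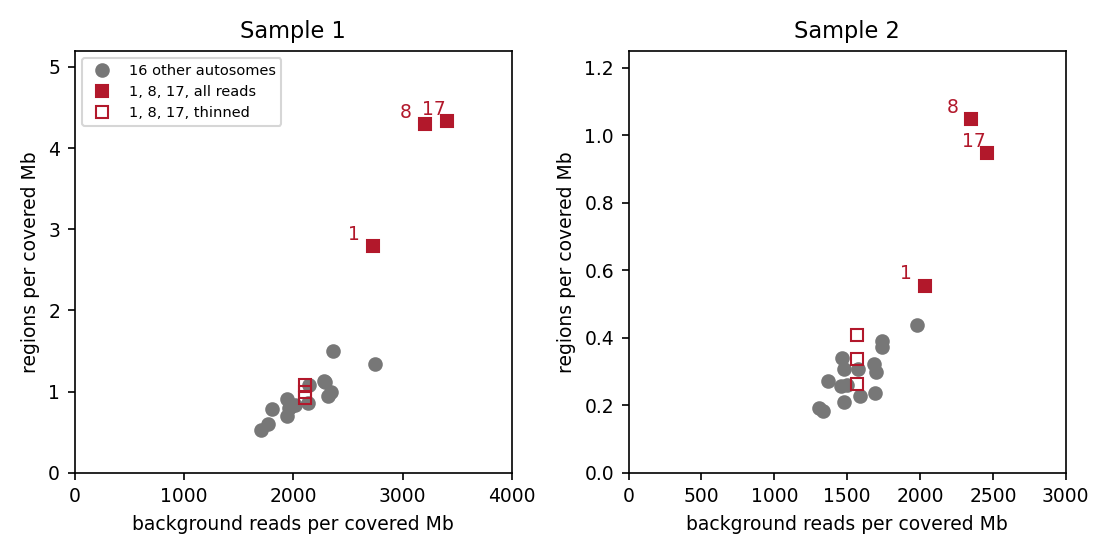
Called regions per covered Mb against background reads per covered Mb for each autosome, in sample 1 (left) and sample 2 (right), with both axes from 0. Filled squares are chromosomes 1, 8 and 17 with all reads, open squares the same chromosomes after thinning (mean of 20 draws), and circles the 16 other autosomes. With all reads the squares reach 4.33 and 1.05 regions per Mb, and after thinning they lie among the circles.

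Strong regions were then taken alone. After thinning, regions of 8 to 11 reads had a ratio per Mb of 1.01 (0.906 to 1.08 over the draws), and those of 16 or more had 1.30 (1.19 to 1.41). For the strong ones chromosome 1 was at 0.870 (0.765 to 0.978), chromosome 17 at 1.40 (1.24 to 1.60) and chromosome 8 at 1.89 (1.68 to 2.19). These ranges do not hold the counting error of a mean of 65.55 strong regions on the 3 chromosomes, 29.3 of them on chromosome 8. A single Mb of chromosome 8, chr8:19000001-20000000, held 29 regions, 13 of them with 16 or more reads, and only 15 could be placed in sample 2, where 2 were called. Without that Mb the strong regions of chromosome 8 numbered 43, and their ratio after thinning was 1.52 (1.30 to 1.88), which overlaps the range of chromosome 17. Differences between the 3 chromosomes were not tested.

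Regions also lay closer together on chromosome 8. Of its 550 regions, 131 (23.8%) lay within 10 kb of another, against 10.0% on chromosome 1, 12.9% on chromosome 17 and 8.18% on the other autosomes. Apart from the Mb named above, the densest on the 3 chromosomes were chr8:127000001-128000000 with 20 regions, chr8:122000001-123000000 and chr8:125000001-126000000 with 18 each, and chr8:87000001-88000000 with 17. The latter 3 hold the strong pair, the Cbfa2t3 regions and the Lyl1 regions. A higher density of regions alone brings them closer together, and closeness was not compared at equal density.

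Sample 2 was then read at the sample 1 regions. The samples are in different builds, and regions were paired by the offset at which their read ends coincide. This placed 1427 of the 1494 regions (95.5%) and 1807 of 1882 (96.0%) on the other autosomes. Of those placed, 145 (10.2%, exact binomial 95% interval 8.64 to 11.8) overlapped a sample 2 region, against 357 (19.8%, 17.9 to 21.7) elsewhere. The share over all autosomes was 15.5%. The difference was -9.60 percentage points (Newcombe 95% interval -11.99 to -7.16). Chromosome 1 had 8.79%, chromosome 8 had 11.2% and chromosome 17 had 10.6%, each below the share elsewhere, and the differences of single chromosomes were not tested.

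With 16 or more reads, 86 of 103 regions on the 3 chromosomes (83.5%, exact binomial 95% interval 74.9 to 90.1) and 214 of 237 elsewhere (90.3%) were called in sample 2. That difference was -6.80 points with an interval of -15.7 to 0.611, which includes 0. On chromosome 17 it was 25 of 26, on chromosome 8 it was 40 of 48 and on chromosome 1 it was 21 of 29. With 8 to 11 reads the shares were 2.93% (2.07 to 4.02) and 5.75% (4.60 to 7.08). The 145 regions called in both samples gave 0.349 per Mb against 0.180 elsewhere, a ratio of 1.95 (1.59 to 2.37), or 1.36 (1.11 to 1.65) per background read. By chromosome the ratio per read was 1.04 (0.754 to 1.42) on chromosome 1, 1.69 (1.26 to 2.24) on chromosome 8 and 1.45 (1.01 to 2.02) on chromosome 17. Calls in both samples still rest on 2 fixed minimums, so these ratios too are not at equal density.

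Enrichment below the call rule was also counted. At least 2-fold enrichment in sample 2 was seen at 67.8% of the placed regions on the 3 chromosomes and 79.0% elsewhere (74.1% over all autosomes). Leaving out sample 2 reads that share their end with a sample 1 read, which can be copies of the same amplified fragment, it was 61.2% and 71.6% (67% over all). Such shared ends made up 20.9% of the sample 2 reads at the regions of the 3 chromosomes and 27.1% elsewhere. The 2-fold is over the larger of the average sample 2 window, 0.437 reads, and the surrounding reads per 200 bp, so 1 read can pass in sparse surroundings. At regions of 8 to 11 reads the surroundings held a mean of 0.717 reads on the 3 chromosomes and 0.567 elsewhere. The regions themselves held 2.38 and 2.66. More reads were thus needed on average on the 3 chromosomes, and the part of this in their lower shares was not tested. The shares include the regions called in sample 2, and random windows were not counted, so they say nothing of the regions without a call taken alone.

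Averaged over regions, the reads without shared ends peaked at the sample 1 summits even for the weak class. For regions of 8 to 11 reads on the 3 chromosomes, sample 2 had 0.949 reads per 100 bp within 100 bp of the summit and 0.337 between 1 and 2 kb away, a ratio of 2.82. Elsewhere the values were 1.08 and 0.270, a ratio of 3.98. For 16 or more reads the ratios were 12.6 and 14.7. The weak regions of the 3 chromosomes thus had a higher flank and a lower peak than weak regions elsewhere. Without control DNA, read-rich places that owe nothing to Scl cannot be told apart from weakly bound ones.

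**Figure D5:**
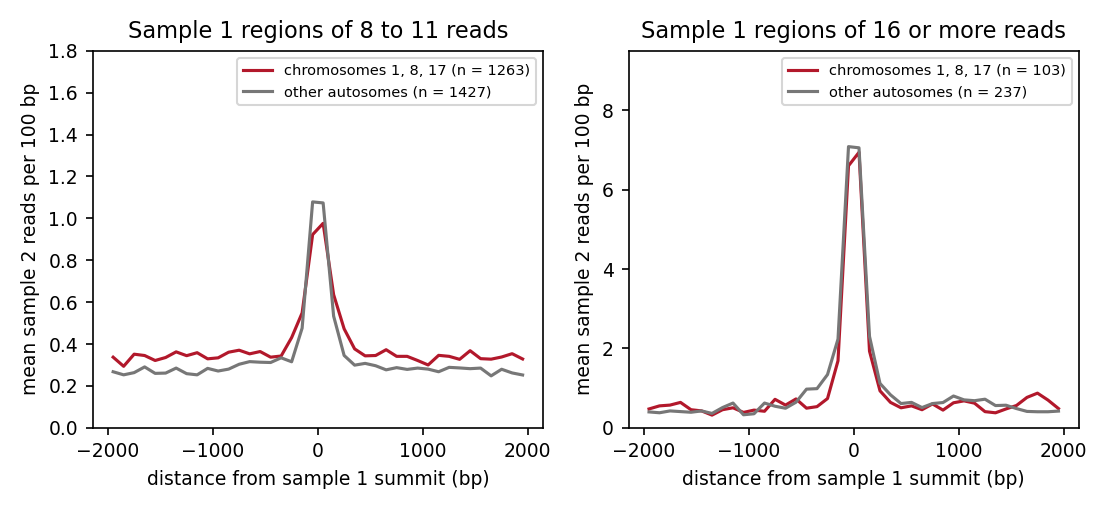
Mean sample 2 reads per 100 bp around the summits of sample 1 regions of 8 to 11 reads (left) and of 16 or more (right), without reads whose end is shared with sample 1, for chromosomes 1, 8 and 17 (red) and the other autosomes (grey). The vertical scales differ between the panels. In the left panel the red peak reaches 0.976 and the grey one 1.08, over flanks of 0.337 and 0.270. In the right panel both peaks are near 7, at 6.94 and 7.08.

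The sequence under the regions was then read for motifs. Reads covered at least 101 of the 201 bases in 283 placed regions of the 3 chromosomes and 511 elsewhere. A GATA motif, bound by Gata1 and Gata2, was present in 37.5% (exact binomial 95% interval 31.8 to 43.4) and 50.3% (45.9 to 54.7), a difference of -12.8 points (Newcombe 95% interval -19.8 to -5.63). Over all autosomes it was 45.7%, and 21.5% of 32851 RefSeq promoter stretches of 201 bases in GRCm38.p6 held it. With 16 or more reads the shares were 62.5% (55 of 88) and 59.4% (130 of 219), a difference of 3.14 points (-9.05 to 14.6). With 8 to 11 reads they were 21.3% (33 of 155) and 38.0% (81 of 213), a difference of -16.7 points (-25.5 to -7.28). Strong regions of the 3 chromosomes thus held the motif about as often as strong regions elsewhere within wide intervals, and their weak regions held it less often than weak regions elsewhere. The promoter share is over 201 known bases and that of regions over 101 to 201, so these are unlike lengths. Of the placed regions, 4.36% lay within 1 kb of a placed start. Stretches elsewhere in the genome were not counted, so promoter shares here and below are not a genomic background. Bases are known only where sample 2 reads fell, so these regions are the better covered ones. They were 19.8% of the placed regions on the 3 chromosomes and 28.3% elsewhere. With 8 to 11 reads they were 155 of 1263 and 213 of 1427. How this selection acts on the motif shares was not tested.

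The weak class can be seen in 2 regions near listed genes with 8 reads each, Nfatc3 and Stat4, both genes for transcription factors of lymphocytes. Reads cover only short stretches of them, and neither was called in sample 2. The first holds a GATA motif, in capitals as above, and the second none.
Nfatc3, 18325 bp past the start, chr8:108967073-108967114: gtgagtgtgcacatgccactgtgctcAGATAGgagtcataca
Stat4, 49265 bp past the start, chr1:51980883-51980940: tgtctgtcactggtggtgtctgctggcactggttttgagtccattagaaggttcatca

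Of the other motifs, the general E-box CANNTG was found in 60.4% and 59.3% of covered regions (59.7% over all, 58.4% of promoters), a difference of 1.13 points (-6.02 to 8.14). CAGCTG was in 14.5% and 22.1% (19.4% over all, 10.9% of promoters), -7.63 points (-12.9 to -1.93). With 16 or more reads CAGCTG was at 19.3% and 28.8%, -9.45 points (-18.8 to 1.54), and with 8 to 11 reads at 14.2% and 15.02%, -0.830 points (-7.95 to 6.78). The core of ETS sites (AGGAAA or AGGAAG, likewise CGGAAA or CGGAAG), bound by factors such as Fli1, was in 41.3% and 53.2% (49% over all, 50.2% of promoters), -11.9 points (-18.9 to -4.63). With 16 or more reads ETS was at 62.5% and 59.8%, and with 8 to 11 reads at 26.5% and 45.5%. The core of RUNX sites (TGTGGT or TGCGGT) was in 22.3% and 27.4% (25.6% over all, 15.1% of promoters), with an interval of the difference of -11.1 to 1.24. Both strands were searched for each. The ETS core, like the GATA motif and the E-box CAGCTG, was thus less frequent over all covered regions of the 3 chromosomes, while the interval for the E-box and for RUNX included 0. Without regions of 8 or 9 reads the intervals of GATA (-6.34 points) and of ETS (-5.86 points, -14.6 to 2.91) also included 0. That of CAGCTG did so within 50 bp of the summit (-3.35 points, -7.29 to 0.903).

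The composite of E-box and GATA was found in 16 of the 283 regions (5.65%) and 40 of 511 (7.83%), 7.05% over all and 1.07% of promoters, with an interval of the difference of -5.59 to 1.73 points. Of the 16, 13 were among the 88 covered regions of 16 or more reads (14.8%, exact binomial 95% interval 8.11 to 23.9), against 24 of 219 elsewhere (10.96%). With 8 to 11 reads it was 2 of 155 and 7 of 213. Chromosome 8 held 6 of the 16, chromosome 17 held 6 and chromosome 1 held 4. The composite region printed next had 27 reads and lay 7916 bp past the nearest placed start, that of G430095P16Rik. It lies within 50 kb of Nfix, a nuclear factor gene of blood progenitors (49109 bp past the start), and also of Lyl1.
Near G430095P16Rik, 27 reads, chr8:87621011-87621178: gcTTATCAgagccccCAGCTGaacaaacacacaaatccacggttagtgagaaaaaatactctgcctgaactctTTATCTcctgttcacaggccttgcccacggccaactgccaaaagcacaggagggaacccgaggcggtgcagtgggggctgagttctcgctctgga

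Gene starts were located in mm8 by exact matches of RefSeq promoter sequences in the sample 2 reads, which placed 11637 of 32851 promoters (35.4%). Within 1 kb of a placed start lay 61 regions of the 3 chromosomes, 9 of them with 16 or more reads, among a share of 4.36% over all autosomes. Beside Lyl1, Cbfa2t3 and Sde2, those with the most reads on chromosome 8 were at Gm39269 (39 reads, 25 in sample 2), Adgrg1 (30 reads, 16 in sample 2) and F2rl3 (19 reads, 18 in sample 2). Adgrg1 encodes an adhesion receptor of blood stem cells, and its region at 942 bp past the start holds a composite. F2rl3 encodes a thrombin receptor of platelets, and its region at -145 bp holds a GATA motif. All 5 promoter regions named on chromosome 8 were called in sample 2 and held a GATA motif.

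On chromosome 1 the 5 named promoter regions fell off quickly: after Sde2 came Neurl3 (21 reads), Cd244a (19), Olfr420 (13) and Cacybp (10), and of these Neurl3 alone was also called in sample 2. Neurl3 encodes a ubiquitin ligase and Cd244a a receptor of natural killer cells. On chromosome 17 Msh6, a DNA mismatch repair gene, had 28 reads at -315 bp, with 4 in lane 7, 25 in lane 8 and 11 in sample 2. The other 4 there, at 3300005D01Rik, Gm52308, Gm35883 and Slc9a3r2, had 10 to 12 reads, and that at Gm35883 was called in sample 2. None of the 5 on chromosome 17 held a GATA motif in the covered bases.

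A list of 60 genes of blood cells, signalling and chromatin on the 3 chromosomes had 28 with a placed start, and 17 of these had a region within 50 kb. Over all placed genes of the 3 chromosomes that share was 47%, and over those of the other autosomes 16.5%. A region within 50 kb of a gene was thus common on these chromosomes whatever the gene. With regions also called in sample 2 the share was 6 of the 28, against 6.11% and 3.11% of all placed genes. The list was chosen with earlier results of these data known, so the 6 of 28 cannot be read as an enrichment. Chromosome 8 had 9 placed, 6 with a region and 4 with one called in both samples, namely Lyl1, Cbfa2t3, Gse1 and Nfix, of which the Nfix region also counts for Lyl1. Chromosome 17 had 14 placed, 9 with a region and 2 called in both, Vav1 and Ccnd3. Chromosome 1 had 5 placed, 2 with a region (Btg2 and Stat4, 8 reads each) and 0 called in both.

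Vav1, a signalling protein of blood cells, had a region of 32 reads 11316 bp past its start, with 10 in lane 7, 20 in lane 8 and 17 in sample 2. Ccnd3, the cell-cycle gene of cyclin D3, had 20 reads 2145 bp past its start, with 8, 13 and 13. Gse1 had 19 reads at -48694 bp, with 7, 12 and 10. The other 11 listed genes with a region had at most 11 reads. At Pim1, a kinase gene, the region at -2933 bp had 8 reads, with 1 in lane 7, 6 in lane 8 and 1 in sample 2. At Treml1, a receptor gene of platelets, the region at -3977 bp had 8 reads, all from lane 8, and 0 in sample 2. Daxx, with 10 reads, likewise had 0 in sample 2. No region lay within 50 kb of the placed starts of Cd34, Cxcr4 or Prox1 on chromosome 1, of Irf8, Cbfb or Smarca5 on chromosome 8, or of Runx2, Satb1, Notch4, Nfkbie or Rasgrp3 on chromosome 17. At this depth that does not show a lack of binding.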

How the data were processed

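Members, gene lists and motifs were chosen with earlier results of these data known. The deposited sample 1 file gives 1 line per aligned read with a score (the score column was not used), and reads were aligned with the Solexa software, per the labels, in build mm9; the unique reads of sample 2 were aligned with Eland in build mm8 (builds per the text deposited with the files). Software versions: not given in the sources used here. Further sample 2 files (several matches, no match, poor quality) were not analysed here. From the reads, distinct ends were taken per sample, and per lane where lanes are given, and regions called as stated in the report with the 67 bp shift in each sample. Strand distance is how far the median 5′ end on the minus strand lies past that on the plus strand. Thinning used 20 draws with fixed seeds. GC content of 1 Mb bins came from sample 2 reads, in classes of 1%. Anchors every 500 kb (4257 of 4955 kept, at 12 or more shared ends and 2 times the runner-up) gave offsets, and a region needed 4 coincident ends within 50 kb and 1.5 times the next. Offsets only paired regions. Promoters of chromosome 18 were not analysed here. The intervals are exact binomial, and Newcombe for differences of shares; no test between groups was made, since only 1 group exists. Named regions are, per chromosome, the 5 with the most reads among those with ends at least 67 bp apart and the 2 with the most among the rest, the 5 promoter regions with the most reads, and listed genes with a region within 50 kb. Printed sequences were picked from these. Calling, thinning, pairing and motif search were tested on simulated data. Python, numpy, pandas, scipy and matplotlib were used in versions 3.11.15, 2.4.6, 2.3.3, 1.17.1 and 3.10.9.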

Additional observations from a re-analysis of the deposited data

How the results depend on the processing

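The sample 1 ratio of 3.80 per Mb moved to 2.14 with a minimum of 12 reads, 2.25 with 16, 4.27 with a 50 kb background, 3.36 with all reads, 2.36 in lane 7 and 3.41 in lane 8. Per background read (2.65) the same settings gave 1.47, 1.54, 3.01, 2.36, 1.62 and 2.35, and bins of equal read number gave 2.00. At equal density (1.06) a minimum of 12 or 16 reads gave 1.24 and 1.26, and raising the minimum to 11, 13 and 13 reads on chromosomes 1, 8 and 17 in place of thinning gave 0.476; the cause was not tested. Leaving out each sample in turn, the lowest and highest values were 2.76 and 3.80 per Mb, 1.95 and 2.65 per read, 1.06 and 1.13 at equal density. Thinning by the ratio at equal GC content gave 0.977, without chr8:19000001-20000000 it was 1.02, and without regions of short strand distance 1.05, all within the interval of the reported value. The planned measure of density, bins without any region, had a ratio of 1.07 (1.19 in sample 2), and it rests on 101 of 415 bins of the 3 chromosomes against 1048 of 1988, since dense bins rarely lack a region. All bins gave 1.48, equal GC content 1.47 in sample 1 and 1.42 in sample 2, and background reads per Mb 1.43. The difference in sample 2 calls was -6.80 points for 16 or more reads, no longer clear of 0, but -18.8 points (-24.9 to -12.5) without regions of 8 or 9 reads, and that in GATA shares -6.34 points (-15.1 to 2.48) without regions of 8 or 9 reads. Equal GC content in sample 1, background reads per Mb, thinning by the GC ratio, bins of equal read number, the comparison at 16 or more reads and the exclusions of chromosome 2 and of 1 Mb of chromosome 8 were chosen after seeing the data. No paired analysis was possible because there is only 1 group.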
